A study of Mus musculus with 12 samples.

Results

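Of 112047 autosomal regions of accessible chromatin found in mouse bone marrow-derived macrophages, 523 were absent from the peak lists of resting cells and present in every list after lipopolysaccharide (LPS), which is shed from the outer membrane of Gram-negative bacteria. They are called here the regions opened by 2 h and kept. Each was covered by a peak in 0 of 4 libraries at 0 h, 4 of 4 at 2 h and 4 of 4 at 6 h, counting wild-type and knockout cells together. Over all chromosomes the 12 lists gave 115231 regions. Peaks that overlapped by at least 1 bp in any list were chained into 1 region. The members were chosen by these peak calls, so "opened" means here not called before and called after LPS, and that pattern is a description with no test.

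Chromatin was assayed by ATAC-seq, where a transposase cuts accessible DNA and tags it for sequencing. Female C57BL/6 mice supplied the bone marrow, which was wild type (WT) or lacked lincRNA-EPS, a long noncoding RNA that restrains immune genes in macrophages (KO). Marrow cells grew for 9 days in 20% L929 supplement, received LPS at 100 ng/ml for 0, 2 or 6 h, and entered transposition at 50000 cells a reaction. The 6 groups, WT and KO at each time, hold 2 libraries each. The KO allele is not described in the labels. Nor is it stated that paired libraries are separate mice or dishes, so any p measures only the spread between these libraries. Inside the lists of the 4 libraries labelled 2 h, the peak names say 1 h. The groups follow the labels, and the true early time may be 1 h. Macrophage marker loci were not checked, since gene annotation of the mm9 build of these lists was not used here, and the regions are given by mm9 position on the 19 autosomes.

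LPS is sensed at the macrophage surface by the receptor TLR4, whose signalling activates NF-κB, AP-1 and interferon regulatory factors. Much of the enhancer landscape that these factors bind is already open in resting macrophages, held by lineage factors such as PU.1. A smaller set of elements has little accessibility at rest and becomes accessible on stimulation, and some of these stay open. The 523 regions were chosen as candidates of that kind from peak calls alone.

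Depth differed between the libraries. Read totals were not used here, but each peak's fold and p-value allow the summit coverage in reads, and the background coverage of its library, to be recovered. Background coverage was 1.43 to 2.51 reads at 0 h, 2.32 to 3.04 at 2 h and 2.17 to 3.35 at 6 h (4 libraries each). The lists held 54771 to 67128, 70387 to 77100 and 78766 to 91610 peaks. Resting KO libraries had the lowest coverage, at a mean of 1.60 reads against 2.43 in resting WT libraries.

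Most early gains were still called later. Of the 886 autosomal regions absent at 0 h and called in all 4 libraries at 2 h, 523 (59.0%) were called in all 4 at 6 h, 134 in 3, 100 in 2, 72 in 1 and 57 (6.43%) in 0. The matching share of all regions called in all 4 libraries at 2 h was not set beside this. The lists at 6 h were also longer, so the 59.0% is a description and not a trait of these regions. Of the 6198 regions absent at 0 h and called in all 4 libraries at 6 h, the same 523 are 8.44%, and 3244 (52.3%) were called in 0 of 4 at 2 h. Applied within 1 genotype, the rule finds 1834 regions in WT and 3344 in KO, of which the 523 are 28.5% and 15.6%. The larger KO number stands beside lower coverage in resting KO cells, whose part in it was not tested.

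Both the count and the membership depend on single libraries and on depth. A further 1635 regions miss the rule by 1 library. A call in 1 resting library kept out 262 regions for WT replicate 1, 266 for WT replicate 2, 282 for KO replicate 1 and 103 for KO replicate 2. The count was therefore 785, 789, 805 and 626 with the respective library left out. After LPS the WT libraries at 2 h excluded most, 154 and 225 regions, against 105 and 104 for the KO libraries at 2 h and 10 to 61 for any library at 6 h. When summit coverage was thinned to the shallowest library's background and the rule was reapplied, 269 regions met it, 224 of them among the 523. With every list cut to the same number of peaks 158 met it, 68 of them among the 523. With peaks of −log10 q of at least 5 alone, 503 met it, 359 of them among the 523, so a similar count need not mean the same regions.

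A pair of numbers describes a region's height. The peak caller's −log10 q of its highest peak was placed in the whole list of its library, giving a list percentile. It was also placed among the 41745 autosomal regions called in all 12 libraries, giving a rank from 0 to 100. That reference set has the same size in every list, so ranks can be set side by side where list percentiles cannot. Values of −log10 q and fold are the authors' own for each peak, and the fold is summit coverage over local background with 1 added to both.

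At 2 h the regions stood near the bottom of the ranks that the always-called regions set. In their own lists their median percentile was 23.7 to 30.4, so weaker peaks made up about that share of each list. Their median rank was 1.70 and 3.43 in the WT libraries and 4.42 and 4.09 in the KO libraries. At 6 h it was 15.6 and 17.6 in WT and 16.7 and 20.0 in KO. The medians at 6 h thus stood above all those at 2 h, at 17.5 ± 1.89 against 3.41 ± 1.21 (mean ± SD, n = 4 libraries each). Mean background coverage was 2.59 ± 0.55 reads at 6 h and 2.80 ± 0.34 at 2 h. The 4 lists at 6 h were each longer than any at 2 h, and the deepest library was at 6 h. Counts from lists thinned to 1 depth are given with the comparison of the times. Median summit coverage was 22 to 27 reads at 2 h and 30 to 45 at 6 h, and median fold went from 4.74 ± 0.13 to 5.83 ± 0.26. The members' own peaks were also wider, with medians of 313 to 343 bp at 2 h and 416 to 460.5 bp at 6 h.

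**Figure D1:**
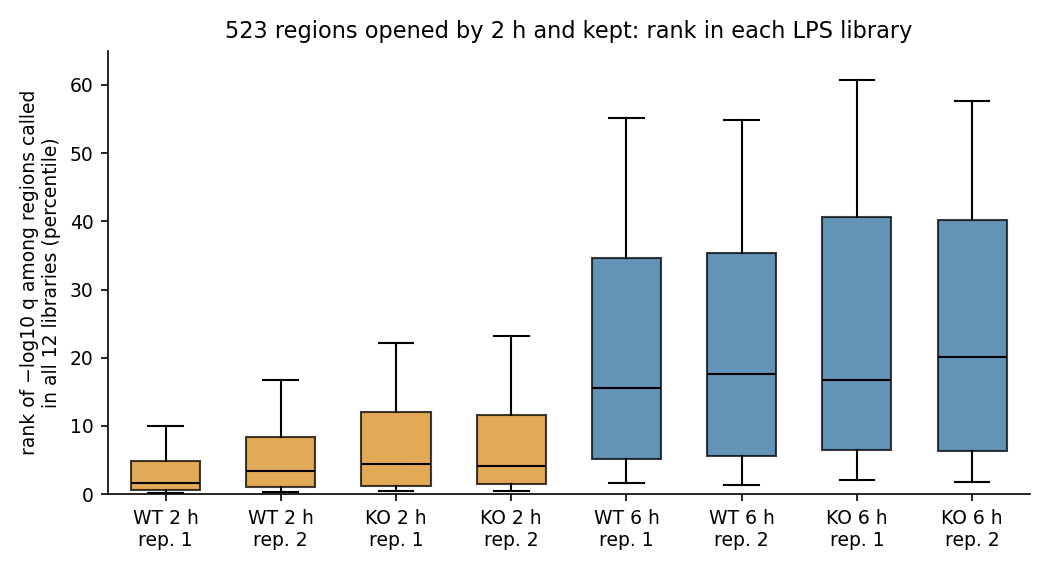
Rank of −log10 q (percentile among regions called in all 12 libraries) of the 523 regions in each of the 8 LPS libraries; boxes run from the lower to the upper quartile with the median as a line, and whiskers reach the 10th and 90th percentiles. The 4 medians at 2 h lie between 1.70 and 4.42 and the 4 at 6 h between 15.6 and 20.0.

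Region by region, 451 of the 523 (86.2%) had a higher mean rank at 6 h than at 2 h. In 234 (44.7%) every 6 h library ranked the region above every 2 h library, and in 1 (0.191%) every 6 h library ranked it below. Among all 49529 autosomal regions called in the 8 LPS libraries these shares were, in the same order, 51.4%, 13.8% and 10.4%. The median difference of mean ranks was 11.6 over the members and 0.25 over all those regions. Most of the latter are the reference set itself, which is centred by construction. A region with no overlap has an exact 2-sided permutation p = 0.0286, the smallest that 4 libraries against 4 can give, and 0.118 after Benjamini-Hochberg adjustment over the 49529, so no single region passed 0.05. The rule is not independent of these ranks, since a call is itself a threshold on peak strength. It favours regions near the bottom, with a median of mean ranks at 2 h of 4.61 beside 40.2 over all 49529, which leaves little room for lower ranks at 6 h. The counts in both directions are therefore a description, and the share lying lower says nothing particular to the members. Of the 234, 173 also lay wholly higher when the fold, the summit coverage and the sum of peak width times fold were each ranked in place of −log10 q. By single measures 207 members lay wholly higher by fold (beside 10.6% of all regions), 241 by coverage (16.3%), 237 by list percentile (16.0%) and 242 by width times fold (12.8%). Wholly lower were 2 by each of them, beside 8.4%, 13.2%, 7.07% and 9.35% of all regions in that order. The list percentile is given for completeness and supports nothing here, because the lists at 6 h were longer. In thinned lists 100 of 269, or 37.2%, were higher and 0 lower, beside 7.72% and 5.59% of all regions.

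The share differed with how many resting libraries called the region. Regions called in all 8 LPS libraries and in 1 of 4 at 0 h had a median rank at 2 h of 4.72, close to the members' 4.61, and 34.4% of those 913 lay wholly higher at 6 h. The share was 26.7% of 1766 regions called in 2 of 4, 20.4% of 4582 called in 3 of 4 and 11.7% of the 41745 called in all 4. The median ranks of these sets at 2 h were 5.40, 8.64 and 49.3, so the level at 2 h was not held equal. The last set is the reference set itself, centred by construction. Regions lying wholly lower made up 0.438%, 0.963%, 2.31% and 12% of the same sets. The median difference of mean ranks was 11.6 in the members and then 7.42, 5.99, 4.65 and −0.60. No test was made between these sets, which share the 8 libraries.

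**Figure D2:**
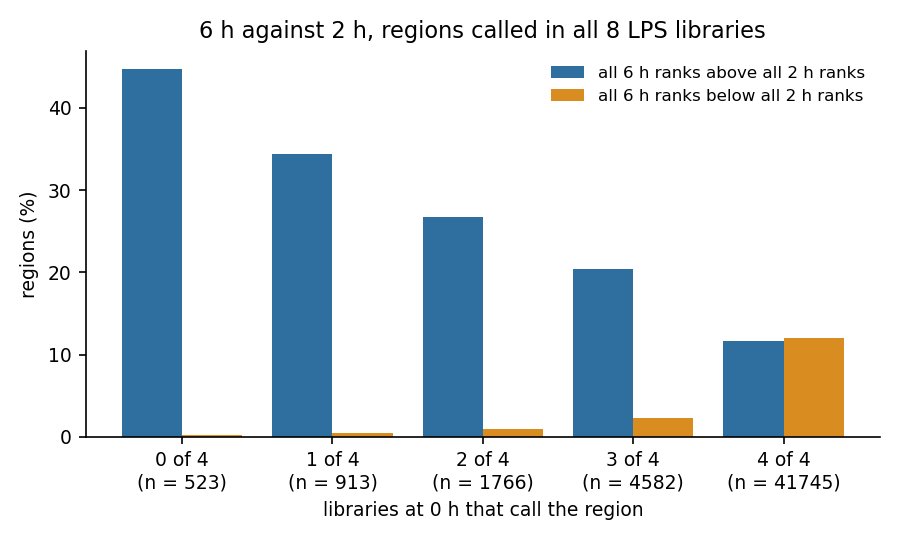
Share of regions (%) whose 4 ranks at 6 h all lie above (blue) or below (orange) their 4 ranks at 2 h, by the number of 0 h libraries that call the region. The blue share is 44.7% where no resting library calls the region and 11.7% where all 4 do. The sets also differ in their ranks at 2 h.

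The members were unequal. Mean ranks at 2 h ran from 0.34 to 45.6 with a median of 4.61, and those at 6 h from 0.40 to 93.2 with a median of 16.3. No member had a mean rank above 50 at 2 h, while 67 (12.8%) did at 6 h and 15 (2.87%) stood above 75. In 4 sets of increasing mean rank at 2 h, 78 of 131, 47 of 131, 53 of 130 and 56 of 131 lay wholly higher at 6 h. The sets were split by the ranks at 2 h, which the comparison itself uses, and low ranks there leave little room for lower ones. Shares of all regions with similar ranks at 2 h were not set beside these counts. The counts are therefore a description, and no conclusion is drawn from them.

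The strongest member over the 8 lists was chr3:135302981-135303722, 742 bp wide, at a mean list percentile of 80.6 ± 14.6 (SD, n = 8). Its ranks were 23.3 and 52.7 in WT and 51.6 and 54.8 in KO at 2 h. They were 87.8 and 78.7 in WT and 90.3 and 89.7 in KO at 6 h. The 2 times did not overlap, and WT replicate 1 stood apart from the other 3 libraries at 2 h. Its summit coverage was 37 and 50 in WT and 58 and 61 in KO at 2 h, and 119 and 102 in WT and 152 and 106 in KO at 6 h. Its fold did not follow. It averaged 8.44 ± 0.738 early and 7.88 ± 0.608 late (SD, n = 4), and a rank built on the fold gave a difference of −4.33, with overlap. The fold divides by local background, so at this region a higher summit went with a higher background. The window for that background can take in the region's own reads, so summit and background are not independent.

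The region at chr16:84603778-84604594, 817 bp wide, showed the same split between measures. It ranked at 11.2 and 18.7 in WT and 46.2 and 41.1 in KO at 2 h, and at 79.6 and 70.6 in WT and 77.3 and 83.4 in KO at 6 h. Both KO libraries exceeded both WT libraries at 2 h, and at 6 h the genotypes overlapped. Its coverage was 42 and 42 in WT and 64 and 62 in KO at 2 h, against 127 and 114 in WT and 151 and 120 in KO at 6 h, while its fold was 5.64 ± 0.709 and 5.70 ± 0.310. A further region of this kind, chr1:137711807-137712509, had a fold of 6.51 ± 1.13 at 2 h and 6.53 ± 0.495 at 6 h beside mean ranks of 35.1 ± 16.7 and 62.8 ± 3.0.

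At chr13:44659987-44660644 rank and fold were both higher at 6 h. The region ranked at 26.5 and 20.2 in WT and 16.9 and 20.8 in KO at 2 h, and at 66.2 and 63.6 in WT and 79.6 and 82.2 in KO at 6 h. Its coverage was 35 and 26 in WT and 27 and 30 in KO at 2 h, and 51 and 46 in WT and 75 and 59 in KO at 6 h. The fold averaged 8.03 ± 0.672 early and 13.6 ± 1.10 late (SD, n = 4), with no overlap between times.

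The other 6 of the 10 highest members also had no overlap between times by −log10 q. chr1:182167425-182168168 went from a mean rank of 29.3 ± 8.49 to 75.3 ± 5.01, and chr16:22124251-22124944 from 24.1 ± 8.36 to 81.0 ± 5.12. chr8:70770571-70771383 went from 30.2 ± 13.4 to 68.4 ± 5.0, and chr14:32410614-32411138 from 24.4 ± 0.817, the narrowest spread of the 10 at 2 h, to 69.9 ± 7.94. At chr16:16346476-16347239 the mean rank was 28.2 ± 23.7 at 2 h and 68.7 ± 3.86 at 6 h. Its 2 h ranks were scattered, with the KO libraries at 59.2 and 5.02, and the times overlapped when the fold was ranked. The seventh, chr17:87349286-87350131, is described next.

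**Figure D3:**
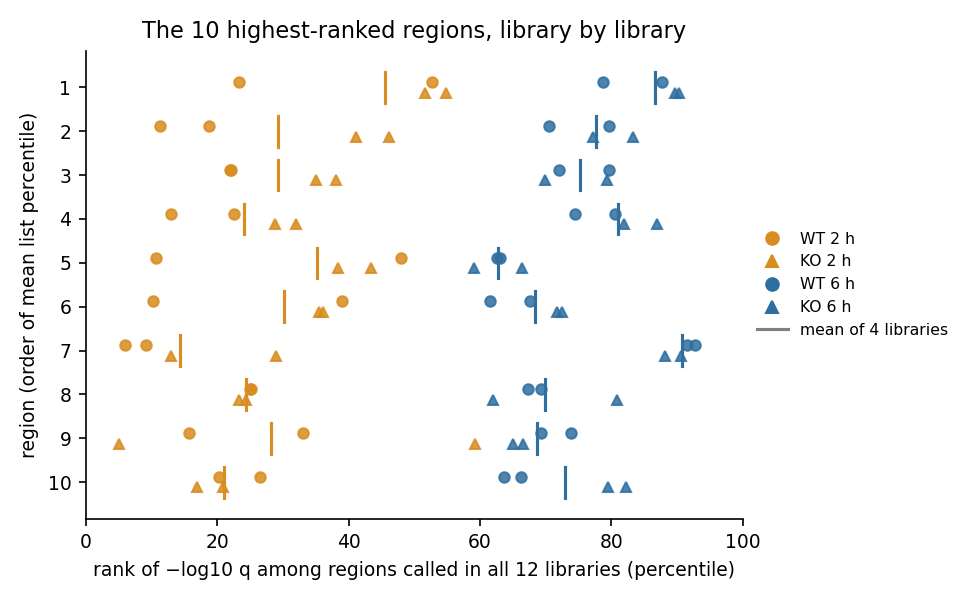
Rank of −log10 q (percentile among regions called in all 12 libraries) of the 10 members with the highest mean list percentile, 1 row a region in that order; circles are WT, triangles KO, orange 2 h, blue 6 h, and bars the mean of 4 libraries. In each row the 4 blue points lie to the right of the 4 orange ones, and the first row has means of 45.6 and 86.6.

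The 5 largest differences between times belonged to regions with mean ranks at 2 h of at most 14.3. chr17:17591364-17592120 led with a difference of 90.8 in mean rank. It stood at 3.25 and 3.73 in WT and 0.595 and 1.90 in KO at 2 h, and at 96.1 and 90.3 in WT and 94.0 and 92.4 in KO at 6 h. Summit coverage was 22 and 18 in WT and 16 and 19 in KO at 2 h, against 100 and 89 in WT and 114 and 84 in KO at 6 h. Its fold was 5.21 ± 0.605 and 14.0 ± 0.898 (SD, n = 4). The 2 times were far apart. Both WT ranks stood above both KO ranks at 2 h, and at 6 h the genotypes overlapped.

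chr18:52694859-52695781 followed, with a difference of 81.1. It ranked at 0.715 and 1.71 in WT and 0.102 and 0.0587 in KO at 2 h, and at 77.0 and 85.8 in WT and 78.8 and 85.3 in KO at 6 h. All 4 ranks at 2 h were under 2. Coverage was 18 and 16 in WT and 14 and 14 in KO at 2 h, where the lowest summit called anywhere in those lists was 10 to 12 reads, and 76 and 85 in WT and 95 and 77 in KO at 6 h.

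The third, chr17:87349286-87350131, ranked at 9.10 and 6.02 in WT and 28.9 and 13.0 in KO at 2 h, and at 92.8 and 91.5 in WT and 88.2 and 90.6 in KO at 6 h. Its fold was 6.20 ± 0.805 and then 10.1 ± 0.483. The last of the 5 were chr2:79007671-79008673 and chr2:145091158-145091928, with differences of 75.1 and 74.1. In the latter, 1 library at 2 h, KO replicate 1, ranked it at 22.4 and the other 3 at 0.19 to 3.04, while the 4 at 6 h lay between 75.7 and 85.6.

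The member lying wholly lower at 6 h was chr6:34906177-34906663, 487 bp wide and 64.0 bp from a region called at rest. It ranked at 8.87 and 16.0 in WT and 15.8 and 14.7 in KO at 2 h, and at 1.55 and 7.22 in WT and 1.87 and 2.13 in KO at 6 h. Coverage was 37 and 31 in WT and 35 and 36 in KO at 2 h, and 20 and 25 in WT and 28 and 20 in KO at 6 h. The difference was −10.6 in mean rank, and by the fold, at 5.61 ± 0.488 and 4.36 ± 0.548, the times overlapped after ranking. With 1 of the 8 libraries left out, which can only keep or raise the count, 2 to 5 members lay wholly lower. By each of the other 4 measures 2 did.

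Few members separated the genotypes. Over both times, all 4 KO ranks lay above all 4 WT ranks at 6 members (1.15%) and below at 3 (0.574%), beside 0.929% and 0.999% of the 49529 regions. These shares are near the background. Their exact permutation p = 0.0286 is the smallest possible, and every adjusted p was 1. With a library left out such counts can only stay or grow, since fewer values must lie apart. The matching shares of all regions were not computed. The counts that follow are therefore not read as the influence of particular libraries. KO lay above at 22 members when WT 6 h replicate 1 was left out, at 16 for KO 2 h replicate 1 and at 15 for WT 6 h replicate 2. It did so at 14 when WT 2 h replicate 2 was left out, 12 when KO 2 h replicate 2 was dropped and 11 when KO 6 h replicate 1 was. KO lay below at 11 members when KO 6 h replicate 1 was left out and at 10 for WT 2 h replicate 1. For replicate 2 of WT, dropped at either time, the number was 6.

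Within a time the KO libraries more often ranked the members higher. At 2 h both KO libraries stood above both WT libraries at 169 members (32.3%, beside 18.3% of all regions) and below at 50 (9.56%, beside 17.3%). At 6 h the numbers were 120 (22.9%, beside 17.4%) and 62 (11.9%, beside 17.2%). Mean rank was higher in KO at 342 members (65.4%) at 2 h and 306 (58.5%) at 6 h, beside 50.7% and 50.1% of all regions. With 2 libraries against 2 the smallest 2-sided p is 0.333, so these counts have no test. WT replicate 1 had the lowest median rank of the 2 h libraries, 1.70. With it left out KO lay above at 40.3% and below at 28.3%, beside 34.2% and 34.0% of all regions, and with WT replicate 2 left out at 54.9% and 16.6%, beside 34.9% and 32.9%. Mean background coverage at 2 h was 2.92 reads in KO and 2.68 in WT. At rest, where the rule asks for no call, it was 1.60 reads in KO and 2.43 in WT. The rule therefore need not treat the genotypes alike, and these counts are not independent of it. They are a description, and the part of coverage in them was not tested.

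The widest genotype gap was at chr9:88833645-88834277, 633 bp. It ranked at 2.38 and 0.991 in WT and 37.9 and 42.8 in KO at 2 h, and at 16.9 and 15 in WT and 41.0 and 49.6 in KO at 6 h. KO was higher at both times, with a mean of 42.8 ± 4.96 against 8.82 ± 8.29 in WT (SD, n = 4), and the 2 times overlapped. Coverage was 21 and 15 in WT and 36 and 40 in KO at 2 h, and 25 and 24 in WT and 46 and 34 in KO at 6 h. chr9:115382996-115383600 had KO ranks of 22.6 to 38.2 and WT ranks of 0.25 to 13.5. At chr19:7387120-7387622 the gap was 17.0. The genotypes overlapped when summit coverage was ranked, though the coverages themselves, at most 35 reads in WT and at least 39 in KO, did not.

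WT was higher at chr11:113591252-113591661, 410 bp. It ranked at 16.4 and 31.4 in WT and 11.2 and 2.86 in KO at 2 h, and at 28.5 and 56.9 in WT and 10.3 and 6.94 in KO at 6 h. The mean was 33.3 ± 17.0 in WT and 7.83 ± 3.79 in KO, and by the fold the genotypes overlapped. chr10:75814699-75815265, with 10.6 ± 6.17 against 1.53 ± 0.527, also overlapped when the fold was ranked but not in the folds themselves. chr18:70690683-70691278, with 9.21 ± 8.34 against 2.11 ± 1.26, overlapped by list percentile and by summit coverage.

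In both genotypes the members ranked higher at the later time. Both WT libraries at 6 h stood above both at 2 h for 338 members (64.6%, beside 29.6% of all regions), and both KO libraries for 316 (60.4%, beside 28.5%). Lower values were seen at 13 in WT (2.49%, beside 25.6%) and 29 in KO (5.54%, beside 25.4%). As in the pooled comparison, the rule favours low ranks at 2 h, which leaves little room for lower ones at 6 h. The counts by genotype are therefore a description. Both genotypes were higher at 256 members (48.9%, beside 17.2%). The median difference was 12.2 in WT and 10.8 in KO. The genotypes moved apart at few members: 7 (1.34%) were higher at 6 h in both WT libraries and lower in both KO libraries, beside 1.7% of all regions, and 1 (0.191%) the other way, beside 1.41%.

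Most members were single compact peaks. Their median width was 540 bp, with quartiles of 463 and 643.5 bp, beside 477 bp for the 3244 regions called at 6 h alone, 383 bp for the 57 called at 2 h alone and 775 bp for those called in all 12 libraries. In 498 (95.2%) no library split the region into more than 1 peak, beside 97.0%, 100% and 84.2% of those sets in the same order. Single peaks are thus not particular to the members. Chaining 12 lists lengthens regions called in more of them, so these widths are not compared as accessibility. The widest, chr10:121444695-121446198, spanned 1504 bp and held up to 3 peaks in a library. It ranked at 0.428 and 3.73 in WT and 6.03 and 6.86 in KO at 2 h, and at 31.7 and 34.5 in WT and 45.0 and 62.9 in KO at 6 h. chr2:11445217-11446701 spanned 1485 bp, with mean ranks of 11.2 ± 9.98 and 77.4 ± 8.98, and chr5:115994002-115995354 spanned 1353 bp with overlapping times.

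Summit positions differed little between times and genotypes. In the 498 single-peak members the median distance between the summits of 2 replicates was 42.0 bp, with 35.5 to 49.0 over the 4 library pairs. It was 43.0 bp between WT and KO at the same time and 46.0 bp between 2 h and 6 h in the same genotype (8 pairs each). The ranges of the last 2, 35 to 57 and 35 to 55.5 bp, cover that of replicates. In the 35139 single-peak regions called in all 12 libraries, which have more reads a summit, the medians were 30, 30 and 31 bp. At members the distances between times and between genotypes were within 4 bp of the distance between replicates.

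Distances from members to chromatin called at rest were measured next. The median gap to the nearest region called in any 0 h library was 3490 bp, and 102 (19.5%) lay within 1 kb and 424 (81.1%) within 10 kb. For the regions called at 6 h alone the median gap was 5350.5 bp, with 16.4% and 69.0% within those distances. All 35542 autosomal regions absent at 0 h had a median of 5234 bp, with 18.1% and 68.8%. The 57 regions called at 2 h alone lay closer within 1 kb, at 33.3%, with 77.2% within 10 kb and a median gap of 2203 bp. Within 1 kb the members' share was thus near that of all regions absent at rest. To the nearest region that every resting library called, the median gaps were 5328 bp for members, 8574.5 bp for regions called at 6 h alone, 9583.5 bp for all regions absent at rest and 6696 bp for those called at 2 h alone. No test was made of these distances.

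**Figure D4:**
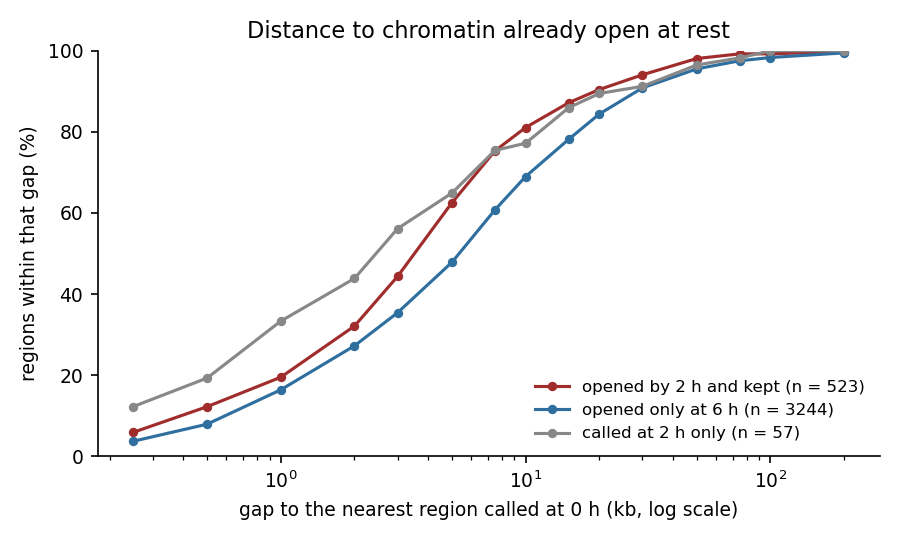
Share of regions (%) whose gap to the nearest region called in any 0 h library is at most the distance on the x axis (kb, log scale), for the regions opened by 2 h and kept (red), those called at 6 h alone (blue) and those called at 2 h alone (grey). The red curve reaches 81.1% at 10 kb and the blue one 69.0%.

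Few members had another member close by, and what their number alone would give was not computed. The median gap to the next member was 962957 bp, 14 members (2.68%) lay within 25 kb of another and 55 (10.5%) within 100 kb. The 14 formed 7 pairs and no larger group. In 3 pairs both members lay wholly higher at 6 h, in 3 neither did, and in 1 a single member did. At chr9:14424191-14425037 and chr9:14436048-14436681 mean ranks went from 2.45 ± 1.97 and 9.51 ± 10.9 to 24.1 ± 6.38 and 56.6 ± 17.6. The pairs chr2:38379696-38380097 with chr2:38396715-38397180 and chr5:105864160-105864848 with chr5:105874711-105875325 had mean ranks under 10 at both times. Within 25 kb of a region called at 6 h alone lay 82 members (15.7%), beside 13.7% of all regions absent at rest.

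Every autosome held members, 18 to 48 each. Chromosome 12 had the most for its number of regions, 7.77 per 1000, followed by chromosome 17 with 6.59, and chromosome 4 had the fewest, 2.76, beside 4.67 over all autosomes. Regions called at 6 h alone were ordered otherwise, with 32.5, 21.7 and 25.1 per 1000 on the same chromosomes beside 29.0 in all.

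Regions that were open throughout were examined around the members, as a description of the surroundings. Of the 282 regions called in all 12 libraries within 5 kb of a member, 61 (21.6%) had all ranks at 6 h below those at 2 h and 25 (8.87%) above. Over all 41745 the shares were 12% and 11.7%. From 100 kb on they were 11.8% and 11.7%. Ranked by summit coverage in place of −log10 q, 41 of the 282 (14.5%) were lower and 49 (17.4%) higher, beside 15.1% and 14.5% of all. The local background that the peak caller used at these summits comes from a window that can take in the member itself, so it is not independent of the member's own signal. It was wholly higher at 6 h in 97 (34.4%), and wholly lower in 4.96%, beside 18.9% and 9.69% of all. Its median was 2.93 times the library background at 2 h and 3.62 times at 6 h, against 2.30 and 2.41 over all. Near members, then, lower ranks stood beside a higher local background, while summit coverage was lower about as often as elsewhere.

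**Figure D5:**
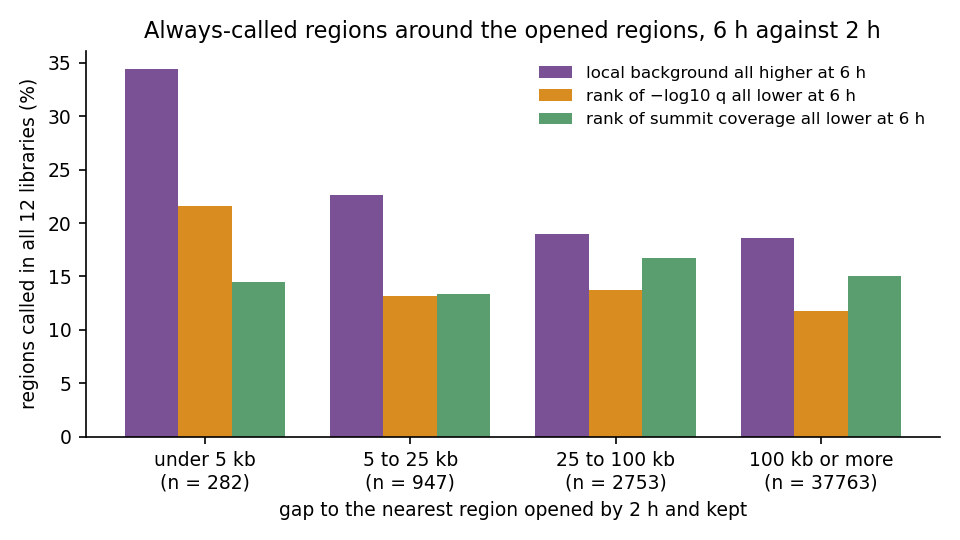
Share (%) of regions called in all 12 libraries whose 4 values at 6 h all lie above (local background, purple) or below (rank of −log10 q, orange; rank of summit coverage, green) the 4 at 2 h, by the gap to the nearest opened and kept region. Under 5 kb the shares are 34.4%, 21.6% and 14.5%, and from 100 kb on they are 18.6%, 11.8% and 15%.

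Shares against 0 h are given as a description only. The rule chose members as uncalled at 0 h and called at 2 h and 6 h, and the local window can take in the member. Local background against 0 h, and the ranks of −log10 q that it lowers, are therefore not independent of the rule. At 2 h both directions were above the background: 17 of the 282 (6.03%) ranked wholly higher than at rest and 21 (7.45%) wholly lower, beside 3.75% and 3.07% of all. By summit coverage 23 (8.16%) were then higher and 12 (4.26%) lower, beside 4.33% and 3.28%, and local background was higher in 62 (22%) and lower in 0, beside 4.27% and 1.32%. At 6 h only the lower share of ranks exceeded the background, with 27 (9.57%) higher and 67 (23.8%) lower, beside 11.4% and 12.1%. Both comparisons use the same 4 resting libraries. By summit coverage 52 of the 282 (18.4%) were higher and 40 (14.2%) lower at 6 h, beside 13.6% and 14.4% of all. Local background was wholly higher in 135 (47.9%) and lower in 2.84%, beside 19% and 9.22%.

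At the members themselves the local background was 1.23 to 1.30 times the library background at 2 h and 1.63 to 1.77 times at 6 h, as medians over the 8 libraries. Here too the window can take in the member's own reads. The difference is therefore not independent of the member's own signal and is not read as a change around it. A higher local background lowers the fold and −log10 q that a given coverage yields. Ranked by summit coverage, 241 members (46.1%) lay wholly higher at 6 h, beside 16.3% of all regions, and 2 wholly lower, beside 13.2%.

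The limit of the rule is drawn by weak peaks. The member with the lowest −log10 q in any LPS library was chr7:31654223-31654666, at 2.68 in KO 6 h replicate 2 with a summit of 10 reads. It was followed by chr18:43552452-43553414 at 2.86 and chr16:64989061-64989712 at 2.89. The last of these ranked at 0 to 1.16 at 2 h and 41.2 to 57.1 at 6 h. Just outside, chr12:103306793-103307354 had a mean list percentile of 77.9 ± 10.4 (SD, n = 8) and was called in 1 resting library, KO replicate 1, with a fold of 6.85. chr6:66798412-66799431, at 74.3 ± 17.3, was called in that library with a fold of 6.49, and chr11:99025840-99026830, at 74.2 ± 10.7, in WT replicate 1 with a fold of 4.48. Their mean folds at 6 h were 9.15, 11.5 and 8.06. After thinning to the shallowest background, 263 members (50.3%) kept a call in every 2 h library and 420 (80.3%) in every 6 h library. The share still called in a single list was 75% to 90.1% at 2 h and 91.0% to 95.2% at 6 h.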

How the data were processed

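The 12 peak lists, 1 a library, were used as deposited. The submitters' processing notes name the aligner Bowtie2 (2.1.0), Picard, the peak caller MACS2 and the genome build mm9, but no settings. Each peak carries values that the authors' peak caller made: a score, the fold of summit coverage over local background (a ratio), −log10 p-values and −log10 q-values, and the summit position.

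Peaks were chained at an overlap of 1 bp. The members, and the lists they are set beside, were chosen with earlier results of these data known. Summit coverage in whole reads was solved from the fold and p-value and matched every peak's deposited −log10 p within 0.001. Groups came from the labels. Comparisons used ranks, counts of regions whose libraries do not overlap, and an exact permutation test with Benjamini-Hochberg adjustment (Python 3.11.15, numpy 2.4.6, pandas 2.3.3, scipy 1.17.1), tested on simulated data. Alternatives were fold, list percentile, width times fold, thinning, equal list lengths, stricter q, other overlaps and each library left out. Summit coverage as a ranked value and local background around members were added after seeing the data.

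Named regions are the 10 members of highest mean list percentile, the 5 with the largest difference in each direction between times (1 lay lower), the 3 in each direction between genotypes, the 3 widest, 3 neighbouring pairs, and the 3 just inside and just outside the rule. Genes, promoters and sequences were not assigned, since the reference tables at hand are of another build.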

Additional observations from a re-analysis of the deposited data

Results flagged for a closer look

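At 7 members both WT libraries ranked higher at 6 h than at 2 h and both KO libraries lower, beside 1.7% of all regions. The difference between genotypes was not tested. The largest was chr10:117303804-117304953, with ranks of 37.6 and 25.8 at 2 h and 56.3 and 40.4 at 6 h in WT, and of 42.7 and 47.3 at 2 h and 33.9 and 31.4 at 6 h in KO. At 1 member, chr12:75433880-75434457, the directions were turned, with mean differences of −8.12 in WT and 15.6 in KO, also not tested. Both regions were picked after their values were seen.

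The X chromosome, which the rule leaves out, held 17 regions of the same pattern among 3184, or 5.34 per 1000 beside 4.67 per 1000 on the autosomes. At 11 of them every 6 h library ranked above every 2 h library and at 0 below, with median mean ranks of 3.27 at 2 h and 23.1 at 6 h. No share of all X regions was set beside these counts. The 17 were chosen by the same calls, and their low ranks at 2 h leave little room for lower ones. The counts are therefore a description.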

How the results depend on the processing

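The number of opened and kept regions was 269 after thinning to the shallowest background, 158 with equal list lengths, 1834 in WT alone and 3344 in KO alone, and 533 to 805 with each library left out in turn. Members lying wholly higher at 6 h numbered 100 after thinning and 241 to 260 with a library left out. Those lying wholly lower numbered 2 by fold, 2 by list percentile, 2 by width times fold, 2 by summit coverage, 0 after thinning and 2 to 5 with a library left out. KO lay above WT at 11 members by width times fold and at 7 to 22 with a library left out, and below at 1 after thinning and at 3 to 11. Each of these counts can only stay or grow when a library is left out. The distance and grouping counts were 424 within 10 kb in place of 1 kb and 55 within 100 kb in place of 25 kb. Among 312 differences at named regions under alternatives, 298 kept their direction and had no overlap, 13 came to overlap and 1 changed sign. The last was chr3:135302981-135303722 ranked by fold, at −4.33, and the cause was not tested. These regions were named for having no overlap, so leaving a library out could not make them overlap or change sign. Most of the 298 were thus fixed in advance. The 13 and the 1 all came from ranking another measure.

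Libraries with the same number deviated together by a correlation of only −0.0126 to 0.0345 over 15 pairs of groups, so the numbers do not pair them. With the replicate block, every same-numbered pair was higher at 6 h in 293 members and lower in 3, and higher in KO in 64 and lower in 21, beside 22.1%, 18.4%, 7.03% and 6.95% of all regions. The motif alternative was not run, since no genome of the mm9 build was used here. Peak lists hold no values below the calling threshold, so a region absent at rest has only an upper bound there.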
